A study of Mus musculus with 8 samples.

Results

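The AP-1 and Egr immediate early genes were followed in 3T3-L1 adipocytes, mouse fibroblasts of an established line that become fat cells in culture, with and without overexpression of the microRNA miR-690. The genes were chosen by name, with earlier results of these data known. They were Fos, Fosb and Fosl2 of the Fos family, Jun, Junb and Jund of the Jun family, and Egr1, Ier2, Myc and Nr4a1. Of these 10 genes, 9 had a row among the 10663 genes of the deposited table, listed as FOS, FOSL2, JUN, JUNB, JUND, EGR1, IER2, MYC and NR4A1, and Fosb was not analysed here. All 9 passed the filter on low values, at least 0.5 CPM in at least 4 of the 8 libraries, where CPM are reads scaled to the same total in each library.

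The study held 4 RNA sequencing libraries labelled as control and 4 labelled miR-690oe, all from adipocytes of the same stated passage. The labels state the same dose of a miR-690 mimic, 5 pM, for each of the 8 libraries, controls included, while neither the treatment that set the controls apart nor the time to harvest is given in those labels. Nothing in them says that libraries of the same group were separate cultures, so every p-value reflects the spread among these 8 libraries and that spread may be technical.

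Immediate early genes are transcribed within minutes of a growth factor, stress or calcium signal, without new protein synthesis, and most of their messenger RNAs are short-lived. Fos and Jun proteins pair through leucine zippers into the transcription factor AP-1, Jun proteins can also pair with each other, and Egr1 is a zinc finger factor that binds GC-rich DNA. In preadipocytes several of these genes are induced by the hormone mix that starts adipogenesis. A microRNA lowers messenger RNAs by pairing its seed, bases 2 to 8, with sites that lie mostly in 3' UTRs. The mature mouse miR-690 of RefSeq (build GRCm38.p6, chr16:28599940-28599961, minus strand) is shown because the overexpressed molecule defines the groups, with the seed in capitals.
mmu-miR-690: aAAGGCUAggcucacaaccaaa
The labels call it miR-690-5p, and the RefSeq entry names no arm. The matching site, TAGCCTT, was found in the annotated 3' UTR of 1 of the 9 measured genes, Egr1, which held 1 copy. By comparison, 1238 of 10364 annotated 3' UTRs of the listed genes (11.9%) held it.

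The libraries held 29773446 to 38235522 reads over the listed genes. With limma, 43.4% of the 10658 genes tested differed between the groups at an adjusted p under 0.05, 26.0% higher and 17.4% lower in miR-690oe, and 38.3% had values that did not overlap between the groups. Of all calls 59.9% were higher, a share that quantile normalization moved to 46.4%. Levels also followed transcript length and GC content differently in the groups. Relative to the mean of all libraries, log2 levels changed by -0.097 to -0.065 per doubling of transcript length in the controls and by 0.027 to 0.13 in the miR-690oe libraries. Per 10% of GC content they changed by 0.037 to 0.079 in the controls, by -0.11 to -0.049 in miR-690oe 1 to 3 and by 0.015 in miR-690oe 4. A second fit therefore used values from which a smooth trend over transcript length and GC content had been removed in every library, called detrended here. After detrending 18.3% of 10610 genes passed the threshold, 13.0% higher and 5.28% lower, so that 71.2% of the calls were higher. Library miR-690oe 1 stood apart from its group: the chi-square per degree of freedom of its reads against the other miR-690oe libraries was 17.0 to 21.9, against 9.49 to 11.7 among those and 3.96 to 8.03 among the controls. Of 12 adipocyte markers, 11 were listed, with a summed level of 12104 to 13364 CPM across controls against 10404 to 13654 CPM in miR-690oe. Of the 11, 0 were called higher and 2 lower (18.2%, beside 17.4% of all genes), with a median log2 fold change of -0.15. After detrending 0 were called in either direction, and the median was 0.01. Of 11 fibroblast and preadipocyte markers, 10 were listed, with sums of 13268 to 15149 CPM and 12478 to 16321 CPM. Prrx1 and Pdgfra were called higher, and S100a4 and Vim lower (20% each way, beside 26.0% and 17.4% of all genes). After detrending 0 of the 10 were called. In miR-690oe 1 the adipocyte sum was the lowest and the fibroblast sum the highest of the 8 libraries, and their part in the results was not tested. Of 6 macrophage markers 3 were listed, with sums of 24.1 to 27.9 CPM across controls against 21.4 to 24.1 CPM in miR-690oe. Of these 3, Cd14 and Lyz2 were called lower (66.7%, beside 17.4% of all genes), and 0 were called after detrending. Of 5 endothelial markers 1 was listed, at 3.14 to 3.76 and 2.51 to 3.89 CPM, and was not called. The defining markers Adgre1, Csf1r, Pecam1 and Cdh5 had no row. The 6 proliferation markers summed to 744 to 849 CPM across controls against 835 to 877 CPM in miR-690oe, but they went in different directions. Mki67 and Top2a were called higher, with log2 fold changes of 0.49 and 0.21, and Cdk1 and Birc5 lower, with -0.13 and -0.16. That is 33.3% each way, beside 26.0% and 17.4% of all genes. After detrending 1 was higher, Mki67, and 2 were lower, Cdk1 and Birc5, beside 13.0% and 5.28% of all genes. In such bulk libraries, fewer cells of a type and less RNA per cell cannot be told apart.

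In miR-690oe adipocytes Fos, Fosl2, Jun, Egr1 and Myc rose, Jund fell, and Junb, Ier2 and Nr4a1 did not pass the threshold. The increases ran from 1.16-fold for Myc to 1.54-fold for Fos, and Jund stood at 0.849 of the control level. Thus 5 of 9 genes (55.6%) were higher and 1 (11.1%) was lower, beside 26.0% and 17.4% of all genes tested. The groups did not overlap for 3 of 9 genes (33.3%), Fosl2, Egr1 and Myc, beside 38.3% of all genes. The median log2 fold change of the 9 genes, on the log2(CPM + 0.5) scale and miR-690oe over control, was 0.27, and that of all genes was 0.02. After detrending, 6 genes were higher and 0 lower, beside 13.0% and 5.28% of all genes: Junb joined the higher genes and Jund no longer passed. The medians were then 0.32 and 0.03. In the authors' deposited table the same 6 genes had a false discovery rate under 0.05, with the same directions as in the limma fit of the values as deposited.

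**Figure D1:**
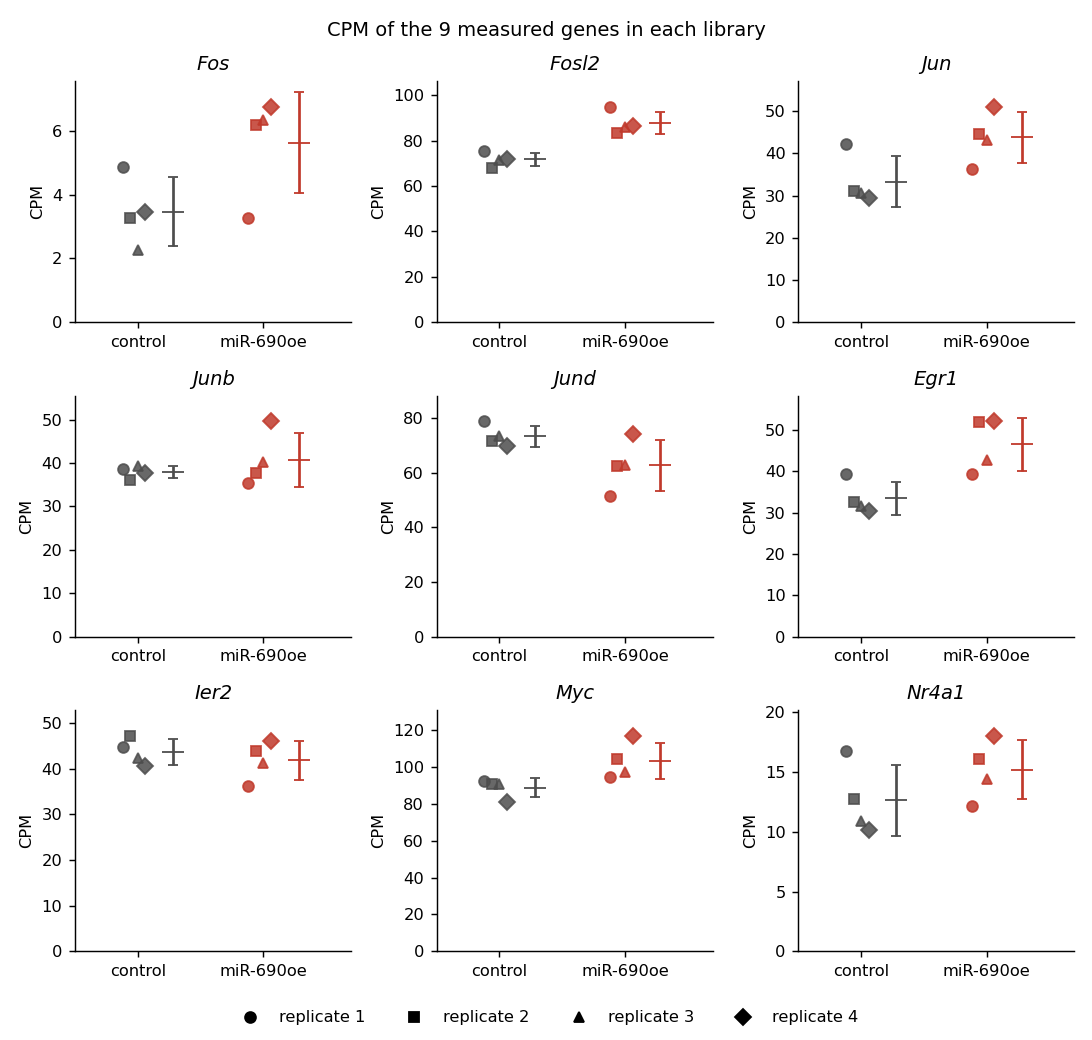
CPM (vertical axis, starting at 0) of each measured gene in the 4 control and 4 miR-690oe libraries. Points are libraries, marked by replicate number, and the bars beside them show the mean and SD (n = 4). The groups are separate for Fosl2, Egr1 and Myc, and for Fos the library miR-690oe 1, at 3.27 CPM, lies among the controls.

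Fos, the prototype of the family and the most transiently induced of its genes, was the least abundant of the 9 genes. It read 4.87, 3.28, 2.25 and 3.46 CPM in control libraries 1 to 4, and 3.27, 6.19, 6.34 and 6.76 CPM in miR-690oe libraries 1 to 4. The miR-690oe libraries 2 to 4 lay above every control, whereas miR-690oe 1 lay below controls 1, 2 and 4, so the groups overlapped. The mean was 3.47 ± 1.08 CPM in the controls against 5.64 ± 1.60 CPM in miR-690oe (SD, n = 4 each), a log2 fold change of 0.62 ± 0.20 (SE, limma adjusted p = 0.0173). This fold change was higher than that of 99.6% of the genes tested. It rested on 67 to 149 reads per control library and 125 to 218 reads per miR-690oe library. After detrending it was 0.74 (limma adjusted p = 0.0179). The call was lost when control 3 was left out (log2 fold change 0.46, limma adjusted p = 0.0589), and likewise without miR-690oe 2, 3 or 4 (limma adjusted p = 0.0509, 0.0571 and 0.0648). In mm10, Fos spans bases 85473890 to 85477273 of chromosome 12, plus strand.

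Fosl2 encodes Fra-2, a Fos relative without the strong transactivation domain of Fos, and was the most abundant measured Fos family gene. It read 75.3, 68.2, 71.3 and 72.0 CPM in control libraries 1 to 4 and 94.9, 83.5, 86.2 and 86.5 CPM in miR-690oe libraries 1 to 4. All 4 miR-690oe libraries lay above all controls, and miR-690oe 1, lowest of its group for the other 8 genes, was the highest here. The mean rose from 71.7 ± 2.94 to 87.8 ± 4.93 CPM, a log2 fold change of 0.29 ± 0.050 (SE, limma adjusted p = 0.000327), or 1.22-fold. Its transcript of 6537 nt was the longest of the 9, against a median of 3096 nt over the genes tested. After detrending the log2 fold change was 0.13 (limma adjusted p = 0.0299), and with a replicate block added to that fit it missed the threshold (limma adjusted p = 0.0505). In mm10, Fosl2 spans bases 32135801 to 32157842 of chromosome 5, plus strand.

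The 3' UTRs of Fos and Fosl2 share a sequence feature that played no part in choosing them. Both held TTATTTATT, the extended AU-rich motif that marks unstable messenger RNAs, which was in 2 of the 9 annotated 3' UTRs, beside 817 of 10364 (7.88%) for all listed genes. Each copy is shown in its UTR context, with the motif in capitals, because AU-rich elements of this kind are known to direct the rapid decay of Fos messenger RNA.
Fos: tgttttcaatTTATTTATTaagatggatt
Fosl2: atttattttaTTATTTATTttaaatgttt
The Fos copy starts at base 655 of an annotated 3' UTR of 815 nt, and the Fosl2 copy at base 3692 of 4653 nt. The shorter ATTTA was in 8 of the 9 UTRs, all but that of Ier2, beside 69.8% of all annotated UTRs. Fosl2 held 8 copies, Fos and Jun 4 each, Nr4a1 3, Egr1, Junb and Myc 2 each, and Jund 1. Per 1 kb of UTR the order differed, with 5.52 copies in Nr4a1, 4.91 in Fos, 4.52 in Myc and 1.72 in Fosl2. The mouse UTRs came from GENCODE M21, and a match describes letters only.

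Jun, the strongest transactivator of its family, rose. It read 42.2, 31.1, 30.5 and 29.4 CPM in control libraries 1 to 4 and 36.3, 44.6, 43.2 and 51.0 CPM in miR-690oe libraries 1 to 4. Control 1 lay far above the other controls and above miR-690oe 1, which was the only overlap between the groups. The mean went from 33.3 ± 5.99 to 43.8 ± 6.03 CPM, a log2 fold change of 0.39 ± 0.10 (SE, limma adjusted p = 0.00621), or 1.31-fold. After detrending it was 0.45 (limma adjusted p = 0.00948). Jun is a gene of 1 exon on chromosome 4, from 95049034 to 95052222 on the minus strand, and the annotated antisense gene Junos overlaps it by 689 nt. No strand setting is stated for the authors' counting, so reads of Jun and Junos cannot be told apart.

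Junb, which can restrain Jun in several cell types, did not pass the threshold. It read 38.7, 36.0, 39.4 and 37.6 CPM in control libraries 1 to 4 and 35.3, 37.6, 40.3 and 49.6 CPM in miR-690oe libraries 1 to 4. The groups overlapped, and miR-690oe 4 alone stood well above the rest. The means were 37.9 ± 1.47 and 40.7 ± 6.25 CPM, and their ratio on the fitted scale was 1.06 with a 95% interval of 0.947 to 1.20 (limma adjusted p = 0.382). Without miR-690oe 4 the log2 fold change was -0.0077 (limma adjusted p = 0.924). After detrending it was 0.25 (limma adjusted p = 0.0140), which passed. In mm10, Junb spans bases 84974484 to 84978718 of chromosome 8, minus strand, where its annotation overlaps Prdx2 by 351 nt. Ier2 lies 311632 bases away on the same chromosome and strand.

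Jund, the family gene that most cells express steadily and that is the least like an immediate early gene in its kinetics, was the one gene that fell. It read 78.8, 71.6, 73.5 and 69.8 CPM in control libraries 1 to 4 and 51.4, 62.4, 63.0 and 74.3 CPM in miR-690oe libraries 1 to 4. Of the miR-690oe libraries 3 lay below every control, and miR-690oe 4 lay within the control range. The mean was 73.5 ± 3.89 CPM in the controls against 62.8 ± 9.38 CPM in miR-690oe, a log2 fold change of -0.24 ± 0.080 (SE, limma adjusted p = 0.0258). Its transcript has the highest GC content of the 9 genes, 67.1% against a median of 50% over the genes tested, and a length of 1668 nt. After detrending the log2 fold change was -0.04 (limma adjusted p = 0.679). In the fit as deposited, the log2 fold change without miR-690oe 1 was -0.14, and the call was lost (limma adjusted p = 0.0723). The call was also lost without control 1, at -0.20 (limma adjusted p = 0.0779), and without the variance trend, at -0.24 (limma adjusted p = 0.0582). In mm10, Jund spans bases 70698949 to 70700616 of chromosome 8, plus strand, and the antisense gene Gm11175 overlaps it by 919 nt, with the same limit on strand as for Jun.

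Within the Jun family the shares of Jund and Jun separated the groups, whereas the total did not. With levels divided by transcript length, the summed Jun family level was 75.4 ± 4.57 CPM per kb in controls and 73.9 ± 10.8 in miR-690oe (SD, n = 4 each), and the groups overlapped. Jund made up 57.7 to 59.1% of that sum in the controls and 49.9 to 51.8% in miR-690oe. Jun made up 12.7 to 16.2% and 18.2 to 19.4%, and Junb 26.1 to 28.9% and 28.8 to 31.7%. The Jund shares and the Jun shares did not overlap between the groups, and the Junb shares overlapped narrowly. These shares describe the values as deposited, without a test.

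**Figure D2:**
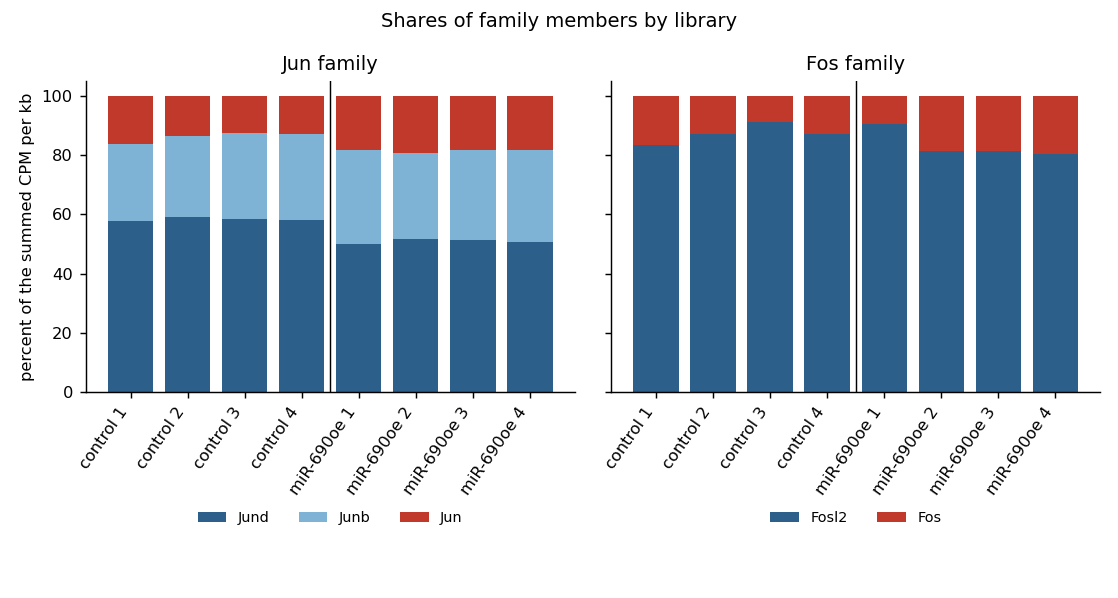
Share of each gene in the 8 libraries (vertical axis, percent of the summed CPM per kb of the genes shown in its panel). The Jun family is on the left. The Fos family panel on the right holds Fos and Fosl2 only, without Fosl1. Jund takes 57.7 to 59.1% in the controls and 49.9 to 51.8% in miR-690oe, to the right of the line, and the Fos share of miR-690oe 1 is 9.65%.

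For Fos and Fosl2 together the summed level was 12.6 ± 0.874 CPM per kb in controls and 16.1 ± 0.303 in miR-690oe, without overlap. Fosl2 took most of it, and the Fos share was 12.9 ± 3.18% in controls and 16.6 ± 4.65% in miR-690oe, with overlap, since miR-690oe 1 held 9.65%. The ratio of the Fos and Fosl2 sum to the Jun family sum was 0.159 to 0.176 in the controls and 0.187 to 0.260 in miR-690oe. Fosb is missing from these sums. The sums, the shares and the ratio use values as deposited, without removal of the length and GC trend. Detrending moved the log2 fold changes of Fosl2 from 0.29 to 0.13, Jund from -0.24 to -0.04 and Junb from 0.09 to 0.25. Those of Fos and Jun went from 0.62 to 0.74 and from 0.39 to 0.45. What detrending would do to the ratio was not tested.

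Whether relatives differed in their change was tested on log2 differences within each library. Of 6 pairs planned, the 4 without Fosb could be formed, and p-values were adjusted over these 4. The difference Jun minus Jund was 0.63 larger on the log2 scale in miR-690oe than in controls, with non-overlapping groups of -1.25 to -0.89 in the controls and -0.54 to -0.48 in miR-690oe. Its two-sided exact permutation p was 0.0286, the smallest that the 70 label orders allow, and 0.0571 after Benjamini-Hochberg adjustment. Junb minus Jund was 0.33 larger, also without overlap and with the same exact p-values. In an alternative added after the data were seen, both differences stayed separate after detrending, at 0.49 and 0.30 (exact permutation p = 0.0286 each, adjusted 0.0571). Jun minus Junb was 0.30 larger (exact permutation p = 0.114, adjusted 0.152), and Fos minus Fosl2 0.34 larger (exact permutation p = 0.286, adjusted 0.286), and neither was distinguishable from the spread between libraries. After detrending these were 0.19 (exact permutation p = 0.171, adjusted 0.171) and 0.61 (exact permutation p = 0.114, adjusted 0.152). Fos minus Fosl2 was 0.18 without control 3 and 0.59 without miR-690oe 1. After adjustment no pair passed 0.05, which an adjusted p could do here only if at least 3 of the 4 pairs had the smallest p.

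Egr1, which is induced alongside Fos and drives or represses many growth and metabolic genes, rose 1.38-fold. It read 39.3, 32.6, 31.5 and 30.3 CPM in control libraries 1 to 4 and 39.4, 51.8, 42.6 and 52.0 CPM in miR-690oe libraries 1 to 4. The groups did not overlap, although control 1 and miR-690oe 1 nearly met. The mean went from 33.4 ± 3.99 to 46.4 ± 6.43 CPM, a log2 fold change of 0.47 ± 0.090 (SE, limma adjusted p = 0.000727), higher than that of 97.5% of the genes tested. After detrending it was 0.43 (limma adjusted p = 0.00742). Egr1 was also the only measured gene of the 9 with a miR-690 seed site in its annotated 3' UTR. In mm10 it spans bases 34859823 to 34864984 of chromosome 18, plus strand.

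Myc, a growth regulator that works as a dimer with Max, rose 1.16-fold. It read 92.4, 90.5, 90.8 and 81.0 CPM in control libraries 1 to 4 and 94.4, 104, 97.1 and 117 CPM in miR-690oe libraries 1 to 4. All miR-690oe libraries lay above all controls, and control 4 was low within its group. The mean went from 88.7 ± 5.18 to 103 ± 9.99 CPM, a log2 fold change of 0.21 ± 0.063 (SE, limma adjusted p = 0.0113), and 0.32 after detrending (limma adjusted p = 0.00163). In mm10, Myc spans bases 61985391 to 61990374 of chromosome 15, plus strand.

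Nr4a1, an orphan nuclear receptor induced by cyclic AMP and calcium signals, did not pass the threshold. It read 16.8, 12.8, 10.9 and 10.1 CPM in control libraries 1 to 4 and 12.2, 16.1, 14.4 and 18.01 CPM in miR-690oe libraries 1 to 4. The groups overlapped widely: control 1 exceeded every miR-690oe library but miR-690oe 4. The means were 12.6 ± 2.97 and 15.2 ± 2.47 CPM, and their ratio on the fitted scale, 1.20, had a 95% interval of 0.993 to 1.46 (limma adjusted p = 0.110). Its call depended on single libraries, since it passed without control 1 (log2 fold change 0.41, limma adjusted p = 0.0101), without miR-690oe 1 (limma adjusted p = 0.0298) and with array weights (limma adjusted p = 0.0457). In mm10, Nr4a1 spans bases 101254269 to 101274795 of chromosome 15, plus strand.

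Ier2, a small nuclear protein gene induced by serum, read 44.8, 47.1, 42.4 and 40.6 CPM in control libraries 1 to 4 and 36.2, 43.9, 41.2 and 45.9 CPM in miR-690oe libraries 1 to 4. The groups overlapped, and miR-690oe 1 alone lay below all controls. The means were 43.7 ± 2.85 and 41.8 ± 4.21 CPM, and their ratio on the fitted scale was 0.955 with a 95% interval of 0.863 to 1.06 (limma adjusted p = 0.459). After detrending the log2 fold change was 0.12 (limma adjusted p = 0.158). In mm10, Ier2 spans bases 84661331 to 84662852 of chromosome 8, minus strand.

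**Figure D3:**
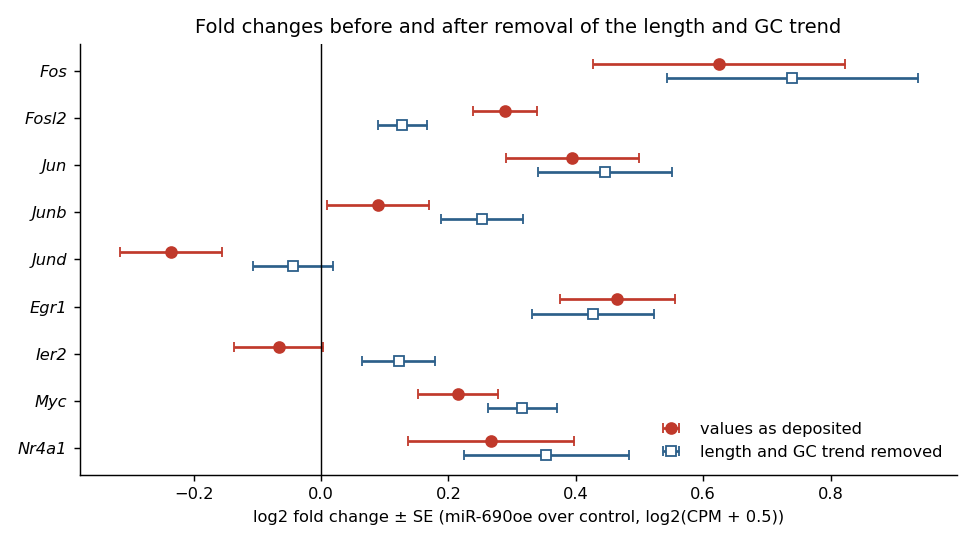
Log2 fold change of miR-690oe over control with its SE (horizontal axis) for each measured gene, from the values as deposited (filled circles) and detrended for transcript length and GC content (open squares). The trend removal lowers Fosl2 from 0.29 to 0.13, brings Jund from -0.24 to -0.04 and raises Junb from 0.09 to 0.25.

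The highest and lowest values of most of the 9 genes fell in the same libraries. Control 1 held the highest control value of 7 genes, all but Ier2 and Junb, and control 4 the lowest of 6. In miR-690oe, library 4 held the highest value of 8 genes and library 1 the lowest of 8, with Fosl2 as the exception in both. Control 1 thereby nearly met miR-690oe 1 for Egr1 and lay above it for Fos, Jun and Nr4a1.

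**Figure D4:**
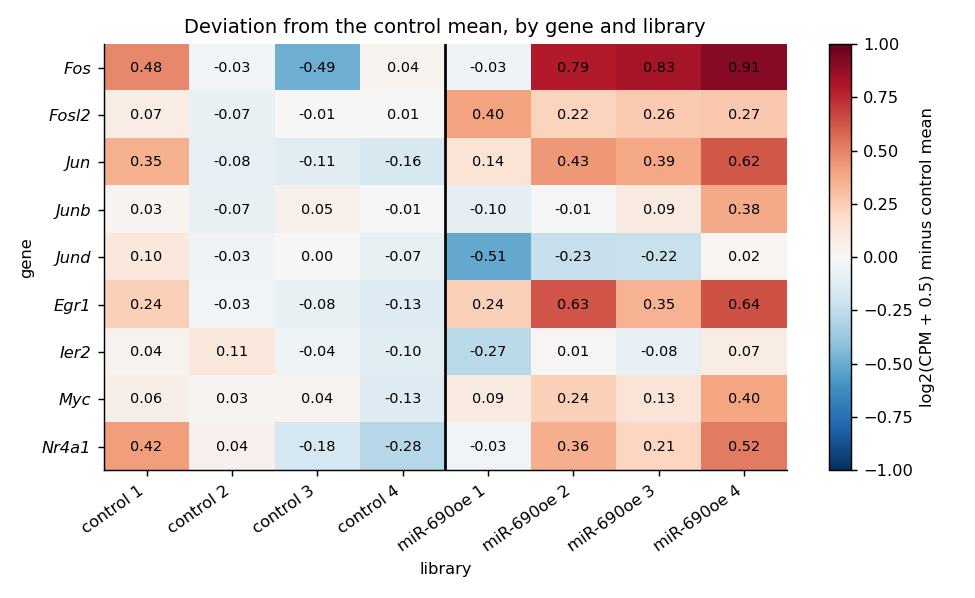
Log2(CPM + 0.5) of each measured gene in each library minus the mean of the controls (colour and printed value; rows are genes, columns libraries, with the controls left of the line). In miR-690oe 4 Fos stands 0.91 and Nr4a1 0.52 above the control mean, whereas in miR-690oe 1 Jund stands at -0.51 and Fos at -0.03.

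By level per length, Jund led in the controls at 44.0 ± 2.33 CPM per kb, followed by Myc at 37.9 ± 2.21, Ier2 at 28.7 ± 1.87, Junb at 20.97 ± 0.814, Fosl2 at 10.97 ± 0.450, Jun at 10.4 ± 1.88, Egr1 at 7.46 ± 0.891, Nr4a1 at 4.95 ± 1.16 and Fos at 1.64 ± 0.511 (SD, n = 4). Among neighbours in this order only Fosl2 and Jun overlapped. In miR-690oe Myc led at 44.1 ± 4.27 CPM per kb with Jund next at 37.6 ± 5.62, and these overlapped, and Jun at 13.7 ± 1.89 stood beside Fosl2 at 13.4 ± 0.755, also with overlap.

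Promoter windows from RefSeq were used for 6 of the 9 genes: Fos, Fosl2, Jun, Junb, Jund and Nr4a1. Only for Fos and Jun among these is its start site the GENCODE gene start given above. The Jund window ends at base 70697738, upstream of the GENCODE start at 70698949, and does not cover the bases just before that start. The 250 bases before the start sites of Fos and Jun are printed because they are the founding AP-1 partners and both rose, with the TATA motif of Fos and the TGACATCA of Jun in capitals and other matches left in lower case (GRCm38.p6, chr12:85473640-85473889, plus strand, and chr4:95052223-95052472, minus strand).
Fos: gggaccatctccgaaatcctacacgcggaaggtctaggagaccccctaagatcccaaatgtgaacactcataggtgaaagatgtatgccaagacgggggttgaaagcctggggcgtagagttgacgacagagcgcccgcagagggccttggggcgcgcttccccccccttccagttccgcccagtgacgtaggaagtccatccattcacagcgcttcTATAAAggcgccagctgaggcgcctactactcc
Jun: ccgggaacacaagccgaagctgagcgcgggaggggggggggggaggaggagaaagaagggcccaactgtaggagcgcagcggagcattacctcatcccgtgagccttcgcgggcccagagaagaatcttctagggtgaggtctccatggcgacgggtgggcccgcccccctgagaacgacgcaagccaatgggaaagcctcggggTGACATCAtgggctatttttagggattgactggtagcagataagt
The capitals in Fos are TATAAA at bases -33 to -28 from the start site, a motif in 13.0% of 27025 promoter windows of the same length. The capitals in Jun are TGACATCA at -45 to -38, which 3.02% of windows held on either strand. The Egr motif GCGNGGGCG was in the windows of Fosl2, at -79 to -71, and Nr4a1, at -60 to -52, beside 4.65% of all windows. Fos, Fosl2, Jun and Nr4a1 held the GC box GGGCGG (32.9% of all windows), which overlaps the Egr motif in Fosl2 and Nr4a1. The cyclic AMP element TGACGTCA, the AP-1 motif TGANTCA, the CArG box bound by serum response factor and the E-box CACGTG had no exact match on either strand in the 6 windows (1.62%, 6.87%, 1.40% and 6.05% of all windows). These are matches of letters and say nothing of binding.

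Among other dimer partners of AP-1, 11 of 15 were measured, 4 were higher and 0 lower (36.4% higher, beside 26.0% of all genes), with a median log2 fold change of 0.16. The partners of Jun in stress signalling, Atf7 and Atf2, rose by 0.40 on the log2 scale (limma adjusted p = 0.000101) and 0.28 (0.000287), and the small Maf gene Mafg by 0.31 (0.000600). All 3 passed after detrending, at 0.16, 0.16 and 0.24. Fosl1, which encodes Fra-1, had 0.06 (limma adjusted p = 0.593), and Atf3, an immediate early stress gene, 0.56 ± 0.29 (SE, limma adjusted p = 0.123). The other Egr, Nr4a and Ier genes were listed together with the Egr corepressors Nab1 and Nab2. Of this list, Egr2, Egr3, Egr4, Nr4a2 and Nr4a3 had no row. Of the 5 of 10 measured, 2 were higher, both of them corepressors, and 0 lower (40% higher, beside 26.0% of all genes). The median log2 fold change was 0.05. The Egr corepressors Nab1 and Nab2 rose by 0.18 and 0.14 on the log2 scale (limma adjusted p = 0.0245 and 0.0364). After detrending Nab2 passed at 0.23 and Nab1 did not at 0.13 (limma adjusted p = 0.123). Ier3 had 0.05, Ier5 -0.04 and Ier5l -0.13 (limma adjusted p = 0.695, 0.592 and 0.185), and after detrending Ier3 passed at 0.27 (limma adjusted p = 0.0307).

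Of 24 other immediate early genes, 22 were measured, 6 were higher and 0 lower (27.3% higher, near the 26.0% of all genes; median 0.14), and after detrending 10 were higher and 1 lower (45.5% higher, beside 13.0%). The genes of the decay factor Zfp36l1 and the zinc finger factors Klf6 and Klf10 rose by 0.46, 0.27 and 0.17 on the log2 scale (limma adjusted p = 6.16e-06, 0.000511 and 0.00748). They passed after detrending at 0.48, 0.17 and 0.17. Ptgs2, the inducible cyclooxygenase gene, named after its values were seen, had the largest fold change of this list, 0.85 ± 0.26 (SE, limma adjusted p = 0.0138), and 0.71 (limma adjusted p = 0.0820) after detrending. Of the AU-rich element binding proteins, which control the decay of such messengers, 11 of 13 were higher and 0 lower (84.6% higher, beside 26.0% of all genes), with a median of 0.31. After detrending 5 were higher and 1 lower (38.5% higher, beside 13.0% of all genes), with a median of 0.08. Zfp36l1 and Zfp36l2, which promote decay, passed in both fits, the latter with log2 fold changes of 0.32 and 0.35, whereas Rc3h1, the Roquin gene, went from 0.46 to 0.08 (limma adjusted p = 0.226). Zfp36l1, Zfp36 and Atf3 each stood in more than 1 list.

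Upstream of the immediate early genes, 8 of 14 serum response, CREB and ternary complex factors and their coactivators were higher and 0 lower (57.1% higher, beside 26.0% of all genes; median 0.19), and 4 after detrending (28.6%, beside 13.0%). The coactivator genes Ep300 and Crebbp rose by 0.69 each and the ternary complex factor gene Elk4 by 0.35 on the log2 scale (limma adjusted p = 1.66e-06, 3.88e-06 and 0.000361). After detrending these were 0.41, 0.39 and 0.27, each past the threshold. Serum response factor itself, Srf, had -0.05 (limma adjusted p = 0.444). Of the JNK, p38 and RSK kinases, 14 of 18 were measured, 6 higher and 1 lower (42.9% and 7.14%, beside 26.0% and 17.4% of all genes, with a median of 0.10). After detrending 2 were higher (14.3%, near the 13.0% of all genes). Map3k1, a kinase above JNK, had 0.58 and 0.36 in the 2 fits and passed in both, whereas Rps6ka3 and Mapk8, the genes of RSK2 and JNK1, went from 0.37 and 0.26 to 0.08 and 0.04 and passed only as deposited.

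Of the MYC and MAX network, 12 of 15 were measured, 5 higher and 1 lower (41.7% and 8.33%, beside 26.0% and 17.4% of all genes, with a median of 0.11). After detrending 2 were higher (16.7%, near the 13.0% of all genes). Trrap, a Myc coactivator, and Mlxip rose by 0.55 and 0.33 and passed after detrending at 0.23 and 0.13, and Mga went from 0.46 to 0.04 on the log2 scale (limma adjusted p = 0.512). Max, the obligate partner of Myc, had -0.01 (limma adjusted p = 0.834). Of known AP-1 target genes, 14 of 16 were measured, 4 higher and 2 lower (28.6% and 14.3%, beside 26.0% and 17.4% of all genes, with a median of 0.07), and 3 higher after detrending (21.4%, beside 13.0%). Vegfa had 0.28 and 0.30 in the 2 fits and passed in both, Cd44 went from 0.28 to 0.09 (limma adjusted p = 0.146), and Timp1 fell by 0.24 as deposited but had 0.00 (limma adjusted p = 0.961) after detrending.

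**Figure D5:**
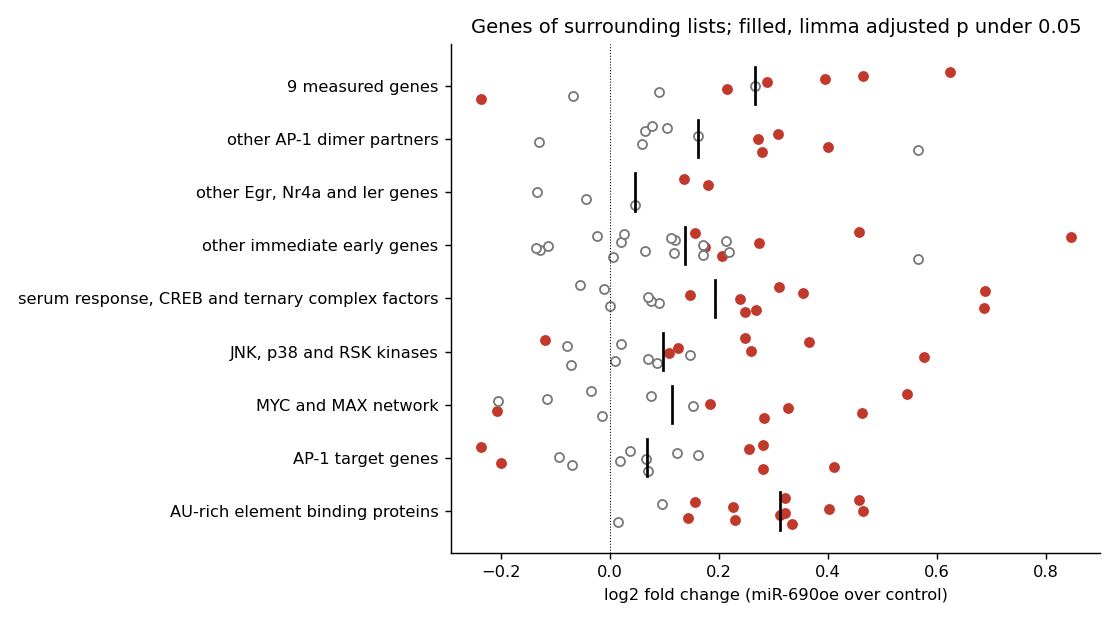
Log2 fold change of miR-690oe over control (horizontal axis) of the 9 measured genes and of the measured genes of each surrounding list (rows). Filled points have a limma adjusted p under 0.05, open points do not, and the vertical bar is the list's median, which is 0.27 for the 9 genes and 0.31 for the AU-rich element binding proteins.

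The genes closest to Fos in their profile over the 8 libraries, by the root mean square difference of centred log2(CPM + 0.5), were Olr1 at 0.202, Dusp6 at 0.219, Cxcl1 at 0.238, Il1rl1 at 0.245 and Tmem170b at 0.258, where the Fos profile itself had a root mean square of 0.479. Olr1 is an oxidized lipoprotein receptor gene, Dusp6 a phosphatase gene for ERK, and Cxcl1 a chemokine gene. The closest to the median profile of the 9 genes, which had a root mean square of 0.179, were Chka at 0.0639, Spp1 at 0.0668, Fam185a at 0.0762, Slc25a25 at 0.0768 and Spry2 at 0.0776. These share the libraries, their depth and the group difference with the genes they resemble, so the likeness is a description.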

How the data were processed

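RNA sequencing values of 8 libraries of 3T3-L1 adipocytes were analysed, 4 control and 4 miR-690oe, grouped by the labels. The deposited table is named as RPKM, but each library column sums to 1000000, so the values deposited by the authors were taken as CPM; the test planned for RPKM was kept, since both are normalized values. Values were whole multiples of a step per column (100% within 0.1 read), which gave the read totals; no count model was fitted. Its headers give the authors' deposited log2 fold change, likelihood ratio score, p-value and false discovery rate for each gene. Trimmomatic 0.38, edgeR 3.20.9 and mm10 appear, without a stated role, in the submitters' processing notes. Of the aligner, the counter and the strand setting nothing is stated in the labels.

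The test was run by limma 3.58.1 under R 4.3.3 on log2(CPM + 0.5) (lmFit, eBayes with trend, two-sided, Benjamini-Hochberg over all genes tested, threshold 0.05), after the filter of 0.5 CPM in at least 4 libraries, which left 10658 of 10663 genes. A log2 fold change on this scale understates changes of low genes such as Fos. Means and SDs are of CPM. For the detrended fit, a spline trend (5 degrees of freedom each) over transcript length and GC content of the longest basic coding transcript in GENCODE M21 was removed from each library. The procedure was tested on simulated data. Sequences came from RefSeq (GRCm38.p6) and, for 3' UTRs, the mm10 reference. Symbols, in capitals in the table, were matched to mouse genes (99.5%).

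The members and lists were chosen with earlier results of these data known. Named genes were the members, up to 3 genes per list with the lowest adjusted p, relatives of the members, and the 5 closest profiles.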

Additional observations from a re-analysis of the deposited data

Results flagged for a closer look

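In 3 of the 18 groups of 4 libraries formed by the 9 genes, 1 library lay far from the others by Dixon's criterion, a gap to the nearest library above the 95% critical share of the group's range. Chance flags about 1 in 20 groups. Fos in miR-690oe 1, at 3.27 CPM, lay below the other miR-690oe libraries with a gap of 0.836 of the range. Jun in control 1, at 42.2 CPM, lay above the other controls with a gap of 0.866. Myc in control 4, at 81.0 CPM, lay below the other controls with a gap of 0.832.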

How the results depend on the processing

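Each gene was refitted under 20 alternatives. Egr1, Jun and Myc passed the threshold in all of them, with limma adjusted p up to 0.0242, 0.0335 and 0.0485. The count of higher genes among the 9 stayed within 1.5 times of 5 under every alternative, and their median log2 fold change ran from 0.17 to 0.32. The count of lower genes was 0 without the variance trend, after detrending (with or without the replicate block) and without control 1 or miR-690oe 1. The cause was not tested. Over all genes, detrending gave 1383 higher and 560 lower, and with the replicate block added 1032 and 439. Ier2 turned to 0.12 after detrending, also with the block. Leaving out each library in turn gave a log2 fold change of Junb from -0.0077 to 0.15 and 3756 to 4811 called genes.

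The replicate numbers did not pair the libraries: the correlations of same-numbered deviations from the group means were -0.30, 0.31, -0.10 and -0.33, and not every library correlated best with its own number. With the replicate block 4209 genes were called in place of 4626, and no call among the 9 genes changed. The count test on whole reads was not run. The Fos level rests on 67 to 218 reads a library, which limits its precision, and intervals for counting error were not formed.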
